A study of Mus musculus with 12 samples.

Results

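Genes that encode histone deacetylases, histone lysine demethylases and methyltransferases, and ATP-dependent chromatin remodellers were examined for binding by Meis1 and Hoxb13 in the mouse heart. The members were the genes whose symbol begins with Hdac, Kdm, Kmt, Setd, Smarc, Arid or Chd followed by a digit, or by a letter and a digit. The RefSeq gene table of the mouse held 82 such genes, of which 78 are protein-coding and 4 are pseudogenes, and 62 of the 82 were named by at least 1 peak among the 14804 genes named in all. These members carried 94 of the 30534 Meis1 peaks and 151 of the 22284 Hoxb13 peaks. One pseudogene was among them, Smarca5-ps, with 2 weak Meis1 peaks of strength 16.9 and 15.8, and the counts below are over the 78 protein-coding members.

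The peaks come from chromatin immunoprecipitation followed by sequencing, in which DNA crosslinked to a protein is recovered with an antibody and read. Ventricles of 3 hearts of CD-1 mice, an outbred stock, were taken at postnatal day 15, and by the protocol 1% of the chromatin was held back as input while the remainder went in equal amounts to a Meis1 and a Hoxb13 antibody. The 12 libraries were 3 Meis1 precipitates, 3 Hoxb13 precipitates and 3 inputs for each factor, all of untreated animals as far as the labels say, and the titles number the libraries of each factor separately. Each factor had 1 peak list over its 3 precipitates, so no value here has a replicate error, no test between hearts was possible, depth is unknown, and the inputs entered no comparison. The tissue is a mixture of cell types and a peak in it cannot be assigned to one of them. Of 8 cardiomyocyte marker genes, 7 had a Meis1 peak and 8 a Hoxb13 peak, against 6 and 6 of 6 fibroblast markers, 5 and 6 of 6 endothelial markers, and 0 and 2 of 6 leukocyte markers. A peak at a gene is not its expression.

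DNA in the nucleus is wound around histones, and the enzymes encoded by these genes change how tightly it is held or what the histones signal. Deacetylases remove acetyl groups and generally accompany lower transcription, methyltransferases and demethylases write and erase methyl groups on histone lysines, and the SWI/SNF (BAF) and CHD enzymes move or evict nucleosomes with energy from ATP. In the heart, class IIa deacetylases hold back the MEF2 factors and hypertrophic growth, and BAF complexes are needed for heart development. Hoxb13 belongs to the posterior Hox proteins and Meis1 to the TALE homeobox proteins, which often bind DNA beside Hox partners, and both have been studied for their part in ending cardiomyocyte division after birth.

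Promoter sequences are shown first for the 5 members at which a Meis1 and a Hoxb13 peak both lay on the promoter window. These are 5 of the 59 members with a window (8.5%), where 2.99% of all protein-coding genes with a window had both. Members not shown also had promoter peaks of both factors, such as Arid5a, whose Meis1 peak lay outside the window. Kdm4b, with overlapping promoter peaks of both, had no window. Each window runs from 250 bases before to 50 bases after the annotated start, was taken from RefSeq (GRCm38.p6, the mm10 build) and is written 5′ to 3′ on the strand of the gene. Capitals mark the bases covered by peaks of both factors.
Kmt5c, chr7:4739877-4740176, plus strand: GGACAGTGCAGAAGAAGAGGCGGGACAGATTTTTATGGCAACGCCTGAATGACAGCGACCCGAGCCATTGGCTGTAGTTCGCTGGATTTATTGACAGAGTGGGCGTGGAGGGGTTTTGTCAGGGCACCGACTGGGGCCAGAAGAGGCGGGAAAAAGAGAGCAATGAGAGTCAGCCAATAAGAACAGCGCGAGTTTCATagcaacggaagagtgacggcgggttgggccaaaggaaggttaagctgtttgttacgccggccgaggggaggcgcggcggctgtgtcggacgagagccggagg
Kmt5a, chr5:124439680-124439979, plus strand: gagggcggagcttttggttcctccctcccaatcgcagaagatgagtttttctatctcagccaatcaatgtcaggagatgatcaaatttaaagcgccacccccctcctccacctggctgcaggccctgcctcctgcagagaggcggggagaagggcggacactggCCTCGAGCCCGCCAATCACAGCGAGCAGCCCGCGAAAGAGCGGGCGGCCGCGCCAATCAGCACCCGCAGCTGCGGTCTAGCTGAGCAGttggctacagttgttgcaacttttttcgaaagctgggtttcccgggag
Setd4, chr16:93603766-93604065, minus strand: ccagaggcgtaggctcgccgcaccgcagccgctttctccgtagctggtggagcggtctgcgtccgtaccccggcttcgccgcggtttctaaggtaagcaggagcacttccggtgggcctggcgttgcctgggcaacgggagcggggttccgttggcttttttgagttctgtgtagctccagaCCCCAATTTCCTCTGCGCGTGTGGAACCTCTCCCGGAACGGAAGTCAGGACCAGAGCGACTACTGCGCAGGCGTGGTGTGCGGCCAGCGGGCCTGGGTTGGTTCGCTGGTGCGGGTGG
Smarca2, chr19:26604910-26605209, plus strand: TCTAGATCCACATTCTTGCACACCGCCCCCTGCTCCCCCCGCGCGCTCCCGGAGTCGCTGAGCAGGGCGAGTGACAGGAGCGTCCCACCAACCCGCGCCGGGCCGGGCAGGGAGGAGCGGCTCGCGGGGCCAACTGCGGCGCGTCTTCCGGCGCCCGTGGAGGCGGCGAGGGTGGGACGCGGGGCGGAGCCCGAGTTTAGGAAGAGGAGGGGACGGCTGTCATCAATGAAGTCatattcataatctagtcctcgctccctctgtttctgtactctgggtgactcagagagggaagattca
Chd8, chr14:52257711-52258010, minus strand: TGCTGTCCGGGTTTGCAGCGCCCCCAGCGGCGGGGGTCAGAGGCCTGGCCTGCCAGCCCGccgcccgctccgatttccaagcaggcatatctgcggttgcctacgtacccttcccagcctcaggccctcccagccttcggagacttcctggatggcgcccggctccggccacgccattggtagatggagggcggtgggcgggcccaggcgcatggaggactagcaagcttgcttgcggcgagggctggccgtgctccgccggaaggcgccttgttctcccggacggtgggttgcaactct
For contrast, 2 windows are shown that were covered by a peak of 1 factor. Capitals mark the bases under the Meis1 peak in Setd7, a methyltransferase of histone H3 and of other proteins, and under a Hoxb13 peak in Smarca4, the BAF ATPase BRG1.
Setd7, chr3:51560774-51561073, minus strand: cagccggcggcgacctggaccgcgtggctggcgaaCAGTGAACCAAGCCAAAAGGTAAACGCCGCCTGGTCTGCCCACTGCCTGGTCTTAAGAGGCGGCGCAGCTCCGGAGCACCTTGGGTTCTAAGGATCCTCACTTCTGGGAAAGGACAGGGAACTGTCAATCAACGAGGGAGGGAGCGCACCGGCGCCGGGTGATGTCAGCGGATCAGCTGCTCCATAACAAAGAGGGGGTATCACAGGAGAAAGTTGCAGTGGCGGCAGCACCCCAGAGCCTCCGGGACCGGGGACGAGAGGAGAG
Smarca4, chr9:21615919-21616218, plus strand: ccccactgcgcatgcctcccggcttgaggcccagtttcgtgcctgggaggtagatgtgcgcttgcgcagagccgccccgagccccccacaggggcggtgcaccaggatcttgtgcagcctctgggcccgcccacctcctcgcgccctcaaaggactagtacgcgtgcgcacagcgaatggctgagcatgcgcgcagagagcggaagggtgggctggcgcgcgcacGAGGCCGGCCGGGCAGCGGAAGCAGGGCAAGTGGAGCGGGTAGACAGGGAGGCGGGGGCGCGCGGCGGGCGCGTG

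These windows were searched on both strands for TGACAG, the letters of Meis-type homeobox motifs, for TGATTGAC, a composite with Pbx, and for CAATAAA and TCGTAAA, of the Hoxb13 type. The Kmt5c window held TGACAG at positions 50 and 92 counted from its 5′ end, and CAATAAA on the opposite strand at position 87, which shares 2 letters with the second TGACAG. In the Smarca2 window TGACAG lay at position 72 and, on the opposite strand, at position 217. The Setd7 window held TGACAG at position 157 and TGATTGAC at position 159, both on the opposite strand and with 4 letters in common. All of these matches fell within the capitals, which cover 198 of the 300 bases in Kmt5c, 233 in Smarca2 and 265 in Setd7. None of the 4 motifs was found in the windows of Chd8, Kmt5a, Setd4 and Smarca4. Over all 21263 promoter windows of protein-coding genes, 18.7% held TGACAG, 0.785% TGATTGAC, 3.85% CAATAAA and 0.574% TCGTAAA. Among windows under a Meis1 peak, 502 of 1130 (44.4%) held TGACAG, and 3 of the 7 member windows did. The Hoxb13-type letters were no such case. Among 5107 windows under a Hoxb13 peak, 2.35% held CAATAAA, below the share of all windows, and 0.627% TCGTAAA. Of the 31 member windows under a Hoxb13 peak, 1 held CAATAAA and 0 held TCGTAAA. The GC content of the printed windows ran from 57.7% in Kmt5c to 72.3% in Smarca4, beside a median of 56.3% over all windows. Only 59 of the 78 members had a window in the table, fewer than 80%, so no share of motifs or GC content over the members was read. A match describes the letters only.

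Throughout, a gene has a peak where the authors assigned one to it as the nearest gene, and peaks assigned to a neighbour are given separately. Hoxb13 peaks were recorded at 55 of the 78 members (70.5%), where 44.4% of the 21887 protein-coding genes had one. Meis1 peaks were recorded at 35 members (44.9%; all genes 38.2%). Both factors had a peak at 29 members (37.2%; 23.9% of all genes). A Hoxb13 peak without a Meis1 peak was found at 26 members (33.3%; all genes 20.5%). A Meis1 peak without a Hoxb13 peak was found at 6 members (7.69%; all genes 14.3%), which were Arid3a, Hdac9, Kdm2b, Kdm4d, Kdm5b and Kmt2b. Of these, Arid3a, Kdm4d and Kmt2b had a Hoxb13 peak assigned to a neighbour within 10 kb of the gene body. No peak of either factor was assigned to 17 members (21.8%; all genes 41.3%).

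At promoters, meaning within about 1 kb of a start site by the authors' annotation, Hoxb13 had a peak at 48 members (61.5%; all genes 30.7%). Meis1 had a promoter peak at 11 members (14.1%; all genes 8.16%), namely Arid5a, Arid5b, Chd9, Hdac4, Kdm4b, Kmt2c, Kmt5a, Kmt5c, Setd4, Setd7 and Smarca2. Promoter peaks of both factors were found at 9 members (11.5%; all genes 4.70%), and overlapping peaks of both at 10 members (12.8%; all genes 5.89%).

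**Figure D1:**
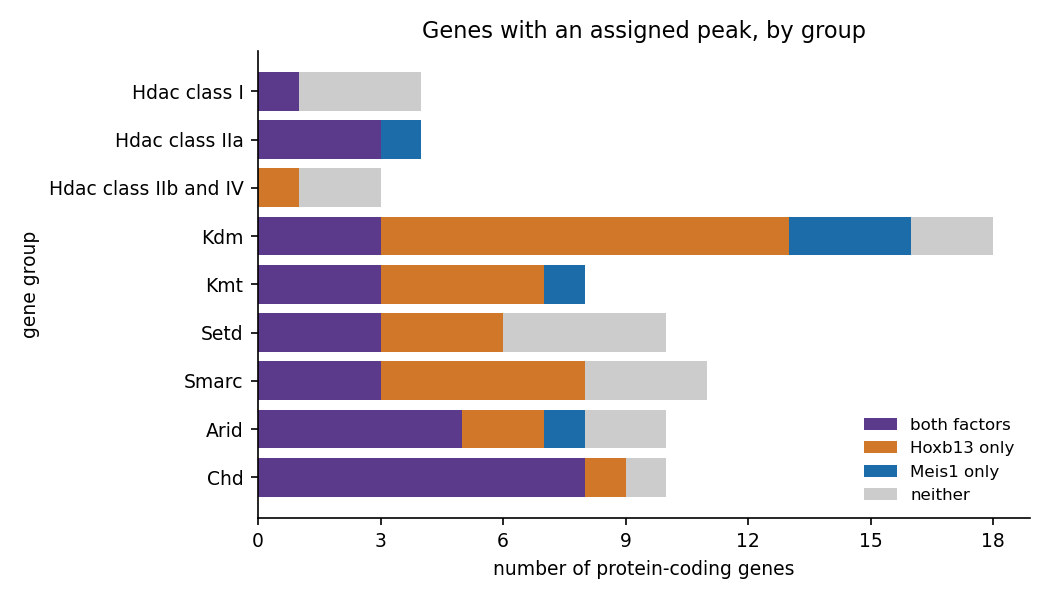
The horizontal axis counts protein-coding members of each role group, and the coloured segments of each bar count genes with peaks of both factors, of Meis1 alone, of Hoxb13 alone or of neither. Chd genes have the longest segment for both factors (8 of 10, all genes 23.9%). Of the 4 class I deacetylases, 3 have no peak (all genes 41.3%).

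Members are long genes, with a median length of 48.0 kb against 17.2 kb for all protein-coding genes, and a long gene can collect more peaks by nearest-gene assignment. Counts were therefore also read within bands of gene length. For Meis1, 2 of 11 members under 20 kb (18.2%; all genes in the band 25.9%), 20 of 50 members of 20 to 100 kb (40.0%; 44.8%) and 13 of 17 members over 100 kb (76.5%; 77.6%) had a peak, so no band exceeded its background. For Hoxb13 the members were above the background in each band, with 6 of 11 (54.5%; 34.0%), 36 of 50 (72.0%; 52.9%) and 13 of 17 (76.5%; 68.3%). The same order held for Hoxb13 promoter peaks, at 6 of 11 (54.5%; 23.9%), 31 of 50 (62.0%; 38.5%) and 11 of 17 (64.7%; 39.7%). Meis1 promoter peaks were found at 2 of 11 (18.2%; 6.16%), 4 of 50 (8.00%; 9.53%) and 5 of 17 members (29.4%; 13.6%). Peaks of both factors were assigned to 2 of 11 (18.2%; 13.5%), 16 of 50 (32.0%; 28.9%) and 11 of 17 (64.7%; 58.5%) in the same bands, and promoter peaks of both to 2 of 11 (18.2%; 3.45%), 3 of 50 (6.0%; 5.57%) and 4 of 17 (23.5%; 8.03%). The part of gene length in these counts was not tested.

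**Figure D2:**
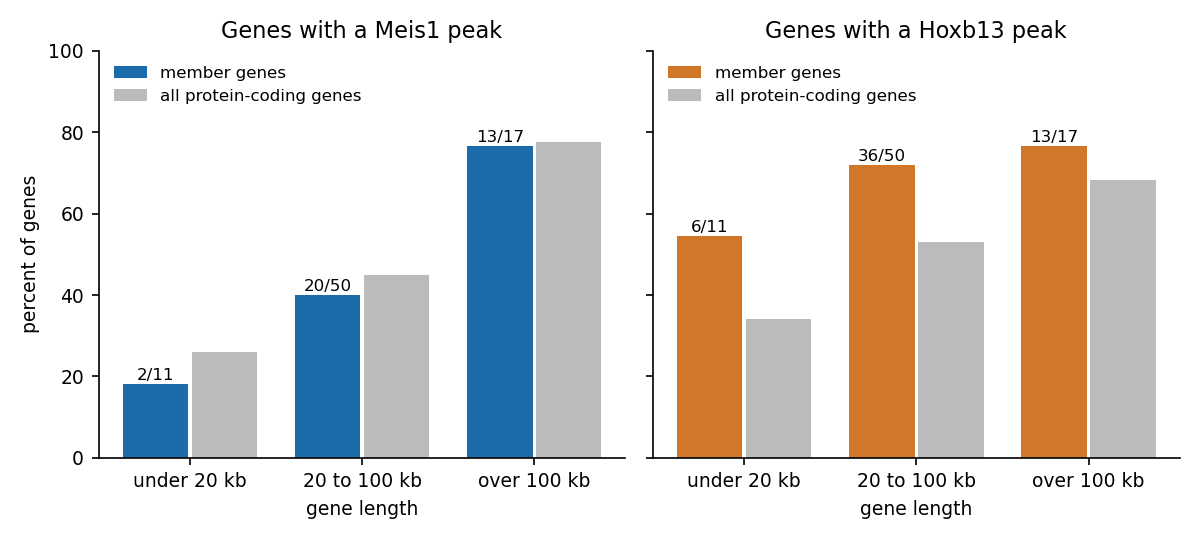
Percent of genes with a peak is plotted by band of gene length for the members and for all protein-coding genes, with 1 panel per factor. Members lie at or below all genes in the Meis1 bands (76.5% and 77.6% over 100 kb), while members lie above all genes in the 3 Hoxb13 bands.

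Of the 151 Hoxb13 member peaks 73 (48.3%, exact 95% interval 40.2 to 56.6) were in the promoter class, against 40.3% of the whole Hoxb13 list, and their median distance from a start site was 1.50 kb against 4.55 kb. Of the 94 Meis1 member peaks 11 (11.7%, exact interval 5.99 to 20.0) were at promoters, against 6.73% of the list, with 47.9% in introns (list 33.4%) and 36.2% intergenic (list 54.9%). The intervals cover counting error only and treat peaks of 1 gene as independent, which they are not. Meis1 member peaks lay 32.7 kb from a start site at the median, against 58.2 kb for the list, and 20 of them (21.3%; list 39.0%) lay beyond 100 kb.

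Peak strength is the deposited value of each peak, on a scale the files do not name, and ranks count from 1 for the strongest peak of a list. The median strength was 21.6 for Meis1 member peaks (list 18.7) and 24.4 for Hoxb13 member peaks (list 21.4). A peak among the strongest 10% of its list was assigned to 11 members for Meis1 (14.1%; all genes 9.05%) and to 20 members for Hoxb13 (25.6%; all genes 8.32%). Of these strong peaks, 2 of 17 were at promoters for Meis1 (11.8%; strongest 10% of the whole list 11.4%) and 18 of 25 for Hoxb13 (72.0%; 71.5%), so the shares were close to those of strong peaks in general. Members with a peak had a median of 1 Meis1 peak and 2 Hoxb13 peaks, with maxima of 10 and 15. Over all protein-coding genes with a peak the medians were 1 and 1 and the maxima 68 and 93. Some Hoxb13 peaks overlap each other, so peak counts are not counts of separate places. The 151 Hoxb13 member peaks form 133 regions when overlapping peaks are joined (whole list 22284 and 21059), and the 94 Meis1 member peaks form 94.

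**Figure D3:**
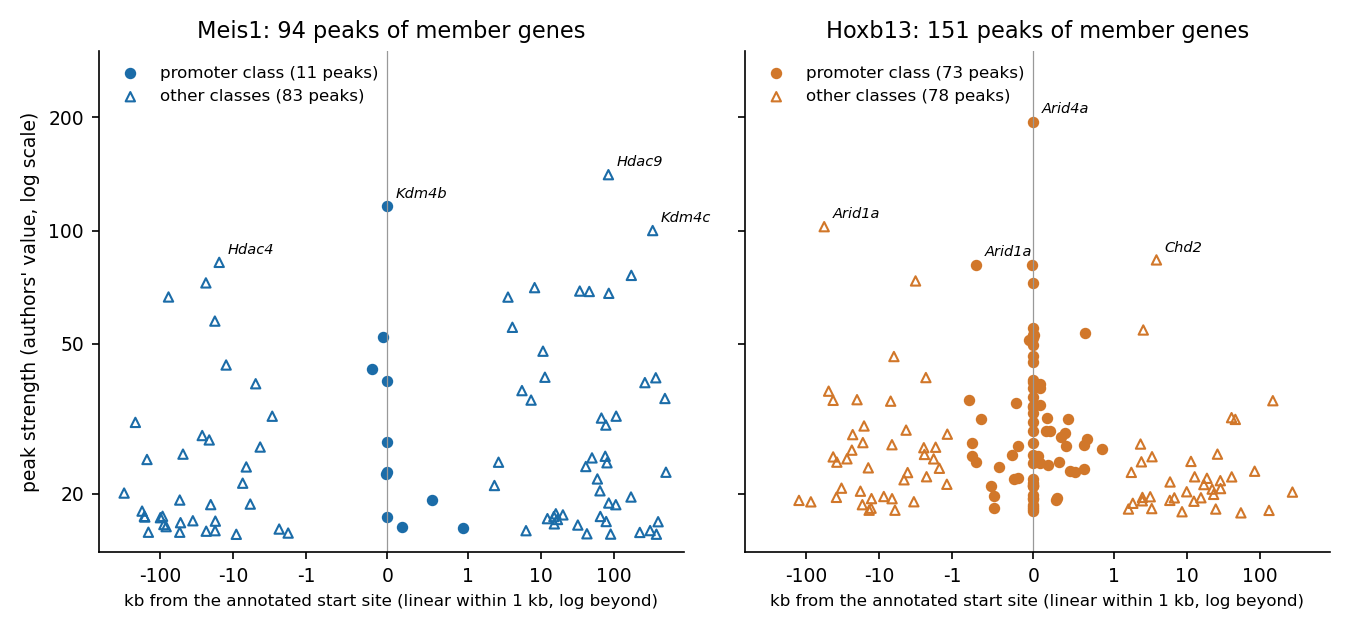
Each point is a member peak, with its signed distance from the annotated start site in kb (linear within 1 kb, log beyond) and its deposited strength on a log axis (filled circles for the promoter class, open triangles for other classes), in 1 panel per factor. Arid4a leads the Hoxb13 panel at 195, on its start, and the strong Meis1 peaks include Hdac9 at 141 and Kdm4c at 100.0, far from a start site.

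Among the deacetylases, Meis1 was recorded at all 4 class IIa members (all genes 38.2%), the signal-responsive partners of MEF2, with 22 peaks. A Hoxb13 peak was assigned to 3 of the 4 (all genes 44.4%). Hdac4 (266.9 kb) and Hdac9 (869.5 kb) are over 100 kb long, and 77.6% of all genes of that length had a Meis1 peak. Hdac5 (34.4 kb) and Hdac7 (51.8 kb) are of 20 to 100 kb, where 44.8% of all genes had one. Hdac9 carried the strongest Meis1 peak of all members, of strength 141 and rank 462, in intron 4 of 27 at chr12:34444819-34445004. This peak lay 83.3 kb from the nearest annotated start, and the other 9 Meis1 peaks of Hdac9 had strengths of 15.7 to 40.8. Measured from the start of the RefSeq gene, 9 of the 10 lay inside it, between 395 and 758 kb along the gene. No Hoxb13 peak was assigned to Hdac9, which makes it the class IIa member with Meis1 alone.

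Hdac4 also had 10 Meis1 peaks, with strengths of 16.3 to 82.3, and 8 of them lay inside the gene. Its 4 Hoxb13 peaks had strengths of 32.9, 22.0, 19.8 and 23.0. The first 3 of them were in the promoter class, each overlapping the next. The fourth lay at the one place where both factors overlapped at Hdac4, an intergenic site at chr1:91922499-91922584, 84.3 kb from the start used by the authors and 6.24 kb beyond the 3′ end of the gene. There the Meis1 peak had strength 68.1 (rank 1562) and lay wholly within the Hoxb13 peak of strength 23.0. Hdac5, which like Hdac9 restrains cardiac growth, had a Meis1 peak of 23.6 in exon 11 of 27 and a Hoxb13 peak of 23.5 in intron 3 of 26, 7.20 kb apart. Hdac7, best known from blood vessels, had a Meis1 peak of 35.5 in intron 1 of 23 and 4 Hoxb13 peaks, 2 of them at the promoter with strengths of 29.4 and 18.5.

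Class I deacetylases are the nuclear enzymes of corepressor complexes. Hdac2 was the 1 of 4 with assigned peaks, and Hdac1, Hdac3 and Hdac8 had none, where 41.3% of all genes had none. For Hoxb13, 3 of the 5 Hdac2 peaks sat on the promoter with strengths of 31.0, 18.7 and 29.3, each overlapping the next. For Meis1, 4 of the 5 lay 99.6 to 220 kb upstream, the strongest of them (31.0) in intron 2 of 3 of the neighbouring gene Hs3st5. In class IIb and IV, Hdac11 had a weak Hoxb13 promoter peak of 18.3, and Hdac6 and Hdac10 had no assigned peak.

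**Figure D4:**
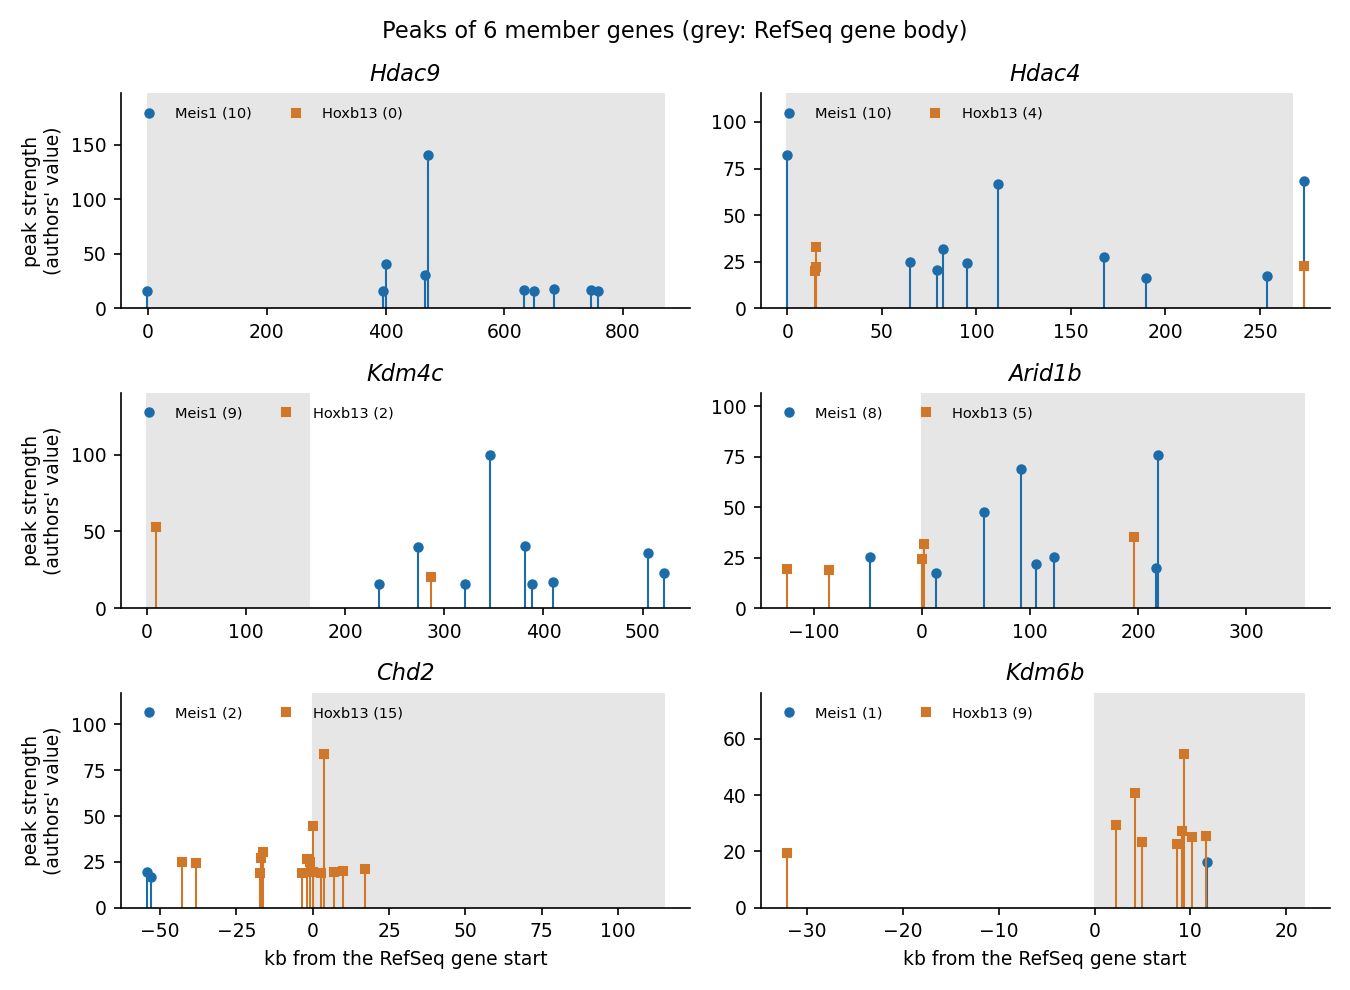
Peak strength (the authors' value) is plotted against distance from the RefSeq gene start in kb, in the direction of transcription, for 6 members with many peaks, with the gene body in grey. Meis1 peaks spread through Hdac4 and Hdac9 and lie beyond the 3′ end of Kdm4c, whereas Hoxb13 peaks gather around the start of Chd2.

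Of the 18 lysine demethylases 13 had a Hoxb13 peak (all genes 44.4%), 12 of them at the promoter (all genes 30.7%). For Meis1, 6 had a peak (all genes 38.2%), 1 of them at the promoter (all genes 8.16%). That one was Kdm4b, a demethylase of trimethylated histone H3, whose Meis1 promoter peak of strength 116 (rank 667) overlapped a Hoxb13 peak of 51.2 (rank 752) by 133 bp. It was the strongest Meis1 promoter peak of the members. Its relative Kdm4c had a Hoxb13 promoter peak of 52.7, while its 9 Meis1 peaks all lay 70.6 to 359 kb beyond the 3′ end of the gene, with strengths of 15.6 to 100.0. Kdm4a had its Hoxb13 peak of 72.7 (rank 325) on the start and no assigned Meis1 peak, although a Meis1 peak of 61.7 (rank 1816) assigned to St3gal3 lay inside its body. Hoxb13 was recorded at the promoters of these 3 paralogues, and Meis1 at the promoter of Kdm4b. The fourth, Kdm4d, had a weak assigned Meis1 peak of 16.7 in its intron, and a Hoxb13 peak of 20.4 assigned to Cwc15 covered 102 bp of its promoter window.

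Kdm6b, which removes the methyl mark laid by Polycomb, carried 9 Hoxb13 peaks of 19.6 to 54.5, of which 8 were inside the gene, and 1 weak Meis1 peak of 16.1 that overlapped one of them. Its X-linked relative Kdm6a had 2 Hoxb13 promoter peaks of 26.8 and 27.0. Kdm2b, which brings a Polycomb complex to CpG islands, had 3 Meis1 peaks and no assigned Hoxb13 peak. The strongest of the 3, of strength 72.6 (rank 1414), was in intron 11 of 22. Kdm3b had a Hoxb13 peak of 55.1 (rank 624) on its start, and Kdm1a (LSD1) one of 26.8 at its promoter. Kdm5c and Kdm5d, the X-linked and Y-linked demethylases of histone H3, had no peak. Of all X genes 77.3% had none, and of all Y genes 99.2%.

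All but 1 of the 8 Kmt genes had a Hoxb13 promoter peak (all genes 30.7%). These included Kmt2a, Kmt2c, Kmt2d and Kmt2e of the MLL family, at 49.7, 34.5, 31.6 and 23.8, and the histone H4 enzymes Kmt5a, Kmt5b and Kmt5c. Inside Kmt2e, nearer its RefSeq start, lay stronger Hoxb13 peaks of 38.05 and 35.9 that were assigned to the neighbour 5031425E22Rik. Kmt5a places the first methyl group on a lysine of histone H4 and Kmt5b and Kmt5c add further ones. Kmt5c had Hoxb13 peaks of 81.1 (rank 261) and 18.0 and a Meis1 peak of 52.3 (rank 2349) at the same promoter. Kmt5a had a weak Meis1 promoter peak of 17.4 and a stronger one of 66.6 (rank 1622) in intron 3 of 7, and 4 Hoxb13 peaks of 19.3 to 29.4. Kmt5b had Hoxb13 peaks of 53.4, 26.4 and 18.1 and no assigned Meis1 peak, with a weak Meis1 peak of 16.5 inside its body assigned to Chka. Kmt2b had a single Meis1 peak of 21.1 inside its body, which the authors place in intron 11 of 11 of the neighbour Gapdhs.

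In the Setd group 6 of 10 members had a Hoxb13 peak (all genes 44.4%) and 3 a Meis1 peak (all genes 38.2%). Each of these 3 had both (all genes 23.9%). Setd1b, a catalytic subunit of COMPASS, carried 7 Hoxb13 peaks, of which 4 lay within 4.61 kb upstream of the gene. The strongest, at 73.5 (rank 321), was 3.18 kb from the start and outside the promoter class, and a Meis1 peak of 26.6 lay 9 bp from another of them without overlap. Setd2, which methylates histone H3 along transcribed genes, had 5 Hoxb13 peaks led by 39.2 at the promoter. Setd4 had a Meis1 peak of 39.9 and a Hoxb13 peak of 34.1 over 1 promoter. Setd7 had a Meis1 promoter peak of 27.5, and its only assigned Hoxb13 peak was a weak one of 18.3 lying 12.9 kb away.

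The BAF complex uses 1 of 2 alternative ATPases. Smarca4 (BRG1) had Hoxb13 peaks of 46.6 (rank 972) and 31.7 at the promoter and a weak Meis1 peak of 17.1 in intron 13 of 33, at least 35.5 kb from them. Smarca2 (BRM) had overlapping promoter peaks of Meis1 at 22.6 and Hoxb13 at 21.3, and 3 further Meis1 peaks 93.1 to 314 kb upstream with strengths of 17.4 to 20.1. Smarcd3 (BAF60c), the heart-enriched subunit, had Hoxb13 peaks of 34.9 at the promoter and 24.8, and no assigned Meis1 peak. The core subunits Smarcb1, Smarcc1 and Smarcd1 each had 1 Hoxb13 promoter peak, of 38.2, 25.4 and 36.2, and no assigned Meis1 peak. In all, 8 of the 11 Smarc genes had a Hoxb13 promoter peak (all genes 30.7%) and 1 a Meis1 promoter peak (all genes 8.16%). Smarca5 (SNF2H), an ISWI ATPase, had a Hoxb13 promoter peak of 24.2 and a Meis1 peak of 17.7 in intron 9 of 23.

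Arid4a, a partner of the retinoblastoma protein, had the strongest Hoxb13 peak of the members, of strength 195 and rank 44, on its start at chr12:71015662-71016029. A second peak of 51.9 lay close by, and the one Meis1 peak, of 21.4, was in intron 7 of 14. Arid1a and Arid1b are alternative DNA-binding subunits of BAF. Arid1a had Hoxb13 peaks of 81.2 (rank 259) at the promoter and 102 (rank 166) 56.8 kb upstream, and no assigned Meis1 peak. Arid1b had 5 Hoxb13 peaks of 19.1 to 35.4, and 8 Meis1 peaks of 17.2 to 76.0, of which 7 lay inside the gene. The strongest of these, of rank 1322, was in intron 4 of 19. Arid5b, which works with a histone H3 demethylase, had 4 Meis1 peaks inside the gene, among them 70.6 and 69.1 in introns 3 and 5 of 6. Arid5a had a weak Meis1 peak of 16.4 that overlapped a Hoxb13 promoter peak of 38.1 by 140 bp.

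The Chd group was the one with most members bound by both factors, 8 of 10. Of all genes 23.9% had both, or 28.9% at 20 to 100 kb and 58.5% over 100 kb. Chd2, Chd6, Chd7 and Chd9 are over 100 kb long, and the only Meis1 peak of Chd1l lay 84.3 kb from a start. Chd2, a remodeller of active genes, had 15 Hoxb13 peaks, the most of any member, with strengths of 18.7 to 83.6. The strongest (rank 247) lay in intron 2 of 38, 3.79 kb from the start, and 9 of the 15 lay upstream, up to 43.0 kb. Its 2 Meis1 peaks, of 16.8 and 19.3, were farther out, 53.0 to 54.3 kb upstream. Chd4, an ATPase of the NuRD complex that works in the heart, had Hoxb13 peaks of 52.9 at the promoter and 46.3 upstream of it, and a Meis1 peak of 24.3 in intron 2 of 38. Its paralogue Chd3 had a stronger Meis1 peak of 55.4 in intron 1 of 39 and 3 Hoxb13 peaks of 23.0 to 27.9. Chd7, whose loss causes heart defects in CHARGE syndrome, had 4 peaks of each factor, none at the promoter. They were led by a Meis1 peak of 57.5 in exon 16 of 38 and a Hoxb13 peak of 35.4, 42.9 kb from the start.

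A Meis1 and a Hoxb13 peak overlapped by at least 1 bp in 14 pairs at 10 members, made of 11 Meis1 and 14 Hoxb13 peaks. The members were Arid5a, Chd8, Chd9, Hdac4, Kdm4b, Kdm6b, Kmt5a, Kmt5c, Setd4 and Smarca2. The summits of a pair lay 9 to 324 bp apart, with a median of 170 bp, against 160 bp over all 1791 pairs of the lists. Kmt5c had the closest promoter pair, with summits 17 bp apart, and the Meis1 peak of 284 bp lay wholly inside the Hoxb13 peak. Next came Setd4 at 76 bp, Smarca2 at 97 bp and Kdm6b at 107 bp. Chd9 held 2 intronic sites, and at the first of them a Meis1 peak of 23.7 met a Hoxb13 peak of 22.2 with summits 9 bp apart. At Kmt5a the overlap was 88 bp with summits 252 bp apart, so the peaks met at their flanks.

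**Figure D5:**
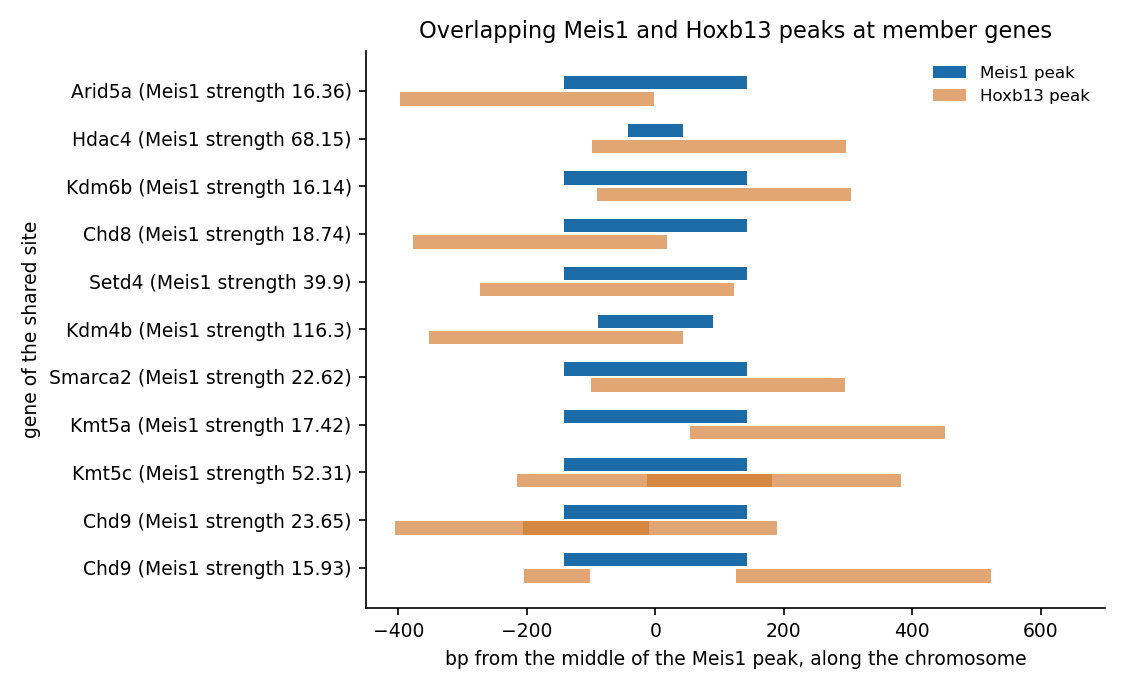
Horizontal bars show the extent of each overlapping Meis1 and Hoxb13 peak in bp from the middle of the Meis1 peak along the chromosome, 1 line per shared Meis1 peak with its deposited strength beside the gene. The Meis1 peak lies within Hoxb13 peaks at Hdac4, Kmt5c and the first Chd9 site, and meets the Hoxb13 peak at its flank over 88 bp at Kmt5a.

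Of all Meis1 member peaks, 12 of 94 (12.8%; list 5.54%) overlapped a Hoxb13 peak of any gene, and of the Hoxb13 member peaks 14 of 151 (9.27%; list 7.93%) overlapped a Meis1 peak. Among promoter peaks the shares were 7 of 11 for Meis1 (63.6%; list 36.4%) and 7 of 73 for Hoxb13 (9.59%; list 8.90%). The additional Meis1 peak was at Kmt2c. Its Meis1 promoter peak of 42.8 overlapped by 123 bp a Hoxb13 peak of 50.6 (rank 772) that the authors assigned to the neighbouring transcript 4831440E17Rik.

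In some members the annotation of a peak depended on which start site was used. Both Chd8 peaks of the shared site, Meis1 at 18.7 and Hoxb13 at 35.6, were annotated as distal intergenic, 20.4 and 20.1 kb from a start, yet both cover the 5′ end of the RefSeq gene. Of the 300 bp of the Chd8 window printed above, the Hoxb13 peak covered 296 and the Meis1 peak 60, at its upstream end. Chd8 is a remodeller known for binding beta-catenin. The strongest Meis1 peak of Hdac4, of 82.3 (rank 1167), was annotated 15.6 kb from a start but lay 221 bp from the RefSeq gene start. A Hoxb13 peak of 28.8 at Arid5b, annotated 1.17 kb away, lay 536 bp from it. Of the peaks outside the promoter class, 2 of 83 Meis1 member peaks (2.41%; list 0.204%) and 2 of 78 Hoxb13 member peaks (2.56%; list 0.851%) lay within 1 kb of the RefSeq start of their gene. The opposite case was found in more peaks. Of promoter peaks, 3 of 11 Meis1 member peaks (27.3%; list 22.7%) and 17 of 73 Hoxb13 member peaks (23.3%; list 17.2%) lay more than 1 kb from the RefSeq gene start. They included the Meis1 promoter peaks of Hdac4 and Arid5b, 190 and 142 kb away, and Hoxb13 promoter peaks of Smarcd3 at 21.8 kb, Hdac4 at 14.5 kb and farther, Hdac7 at 12.6 and 12.9 kb and Kdm4c at 9.17 kb.

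Of the 17 members with no assigned peak, 9 had a peak of another gene within their body or 10 kb of it, namely Arid3c, Hdac1, Hdac3, Hdac8, Hdac10, Setd1a, Setd3, Setdb1 and Smarcc2. Arid4b, Chd5, Hdac6, Kdm5c, Kdm5d, Setdb2, Smarca1 and Smarcd2 had none. The same share was not counted over all genes without an assigned peak, so 9 of 17 has no background here. A Hoxb13 peak of 47.1 (rank 945) assigned to Ccnk covered 208 and 165 bp of the promoter windows of Setd3. One of 24.2 assigned to Mir8105 covered 70 bp of the window of Smarcc2, a BAF core subunit. On the X chromosome 4 of 5 members had no peak, where 77.3% of all X genes had none.

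Members with peaks also had peaks assigned to neighbours. Inside the Hdac5 gene a Meis1 peak of 71.5 (rank 1449) at chr11:102218870-102218940 lay within a Hoxb13 peak of 24.0, and both were assigned to Mir8101. Its strength was above that of the Meis1 peak the authors gave to Hdac5 itself. Another Hoxb13 peak assigned to Mir8101, of 27.2 (rank 5447), covered 53 bp of the Hdac5 promoter window. Near Smarcd3, a Meis1 peak of 48.4 and a Hoxb13 peak of 18.1 overlapped at the promoter of Chpf2. Inside Setd7, peaks of 25.8 and 23.1 overlapped by 196 bp at the promoter of 5031434O11Rik, apart from the window printed above. A Meis1 peak of 37.2 inside Arid1a was assigned to Mir7227. Within 10 kb of Kmt2d, Meis1 and Hoxb13 peaks of 113 and 71.1 sat at the promoter of Prkag1, a subunit of the energy sensor AMPK, without overlap.

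Other chromatin genes, 91 in a list that shares no gene with the members, had a Meis1 peak at 38 (41.8%; members 44.9%, all genes 38.2%). They had a Hoxb13 peak at 66 (72.5%; members 70.5%, all genes 44.4%). A Hoxb13 promoter peak was found at 57 of them (62.6%; members 61.5%, all genes 30.7%). A Meis1 promoter peak was found at 20 (22.0%; members 14.1%, all genes 8.16%). Of 16 Polycomb genes 15 had a Hoxb13 peak and 3 a Meis1 peak, and of 7 sirtuins, which are deacetylases of another kind, 5 had a Hoxb13 peak and 0 a Meis1 peak. The 14 other SET and DOT1 methyltransferases had Meis1 peaks at 11 and Hoxb13 peaks at 10. Dot1l, a histone H3 methyltransferase of transcribed genes that cardiomyocytes need, had a Meis1 peak of 346 (rank 24) in an intron, stronger than that of any member. Both factors overlapped at 9 of the 91 genes (9.89%; members 12.8%, all genes 5.89%), among them Jarid2, Phc2, Nsd3, Suv39h1, Bcl7b, Rcor1, Gatad2a and Men1.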

How the data were processed

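The deposited files were 2 annotated peak lists on the mm10 build, 1 per factor over 3 precipitates each. Bowtie2 2.2.3, Picard, ChIPseeker and deepTools 1.6 are named per the submitters' processing notes, without their roles. For peak calling, the program, the threshold and any pooling of libraries were not given in the sources used here. Peak strength is the deposited signal value of each peak, and a second deposited score was not used. Gene assignment, class and distance are the authors', and the farthest promoter peaks lay 997 bp from a start site for Meis1 and 999 bp for Hoxb13.

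Members were matched by symbol and gene ID to a RefSeq table of mm10. It held 9830 of 9840 genes in the Meis1 list and 10969 of 10981 in the Hoxb13 list. A member counted as bound if at least 1 peak was assigned to it, and was set beside the same share of all 21887 protein-coding genes. Overlap required 1 bp. Distances along a gene use RefSeq gene ends, with the strand from the deposited lists. Overlap counting was tested on simulated data. Python 3.11.15, pandas 2.3.3 and scipy 1.17.1 were used, and no enrichment test was run.

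The members, role groups and lists of other genes and markers were chosen with earlier results of these data known. Genes named in the text are those with a shared site, the 8 with the strongest and the 5 with the most peaks for each factor, members with no peak, and Hdac4, Hdac5, Hdac7, Hdac9, Smarca4, Smarca2, Smarcd3 and Arid1a for their roles in the heart. Other members were added after their values were seen. Alternatives tried were the stronger 50% of peaks, distance limits, equal list lengths, 2 more Smarc genes, stricter overlap, the strongest peak of each member and, chosen after seeing the data, gene bodies and joined peaks.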

Additional observations from a re-analysis of the deposited data

How the results depend on the processing

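Of 28 alternative settings over 8 results, 23 kept the value within its margin, which was 1.5 times for counts and the exact 95% interval of the reported share for percentages. With peaks limited to 10 kb from a start site, members with peaks of both factors fell from 29 to 17 (21.8%; all genes 10.3%). Counting the strongest peak of each member, the promoter share of Hoxb13 peaks was 78.2% in place of 48.3%, and that of Meis1 peaks 19.4% in place of 11.7%, which is inside its wider interval. The 14 overlapping pairs became 4 with summits at most 100 bp apart, 5 with reciprocal overlap of at least 50%, and 7 in the stronger 50% of each list. Members with a Meis1 peak ranged from 24 to 44 and with a Hoxb13 peak from 49 to 66. The lower end for Meis1 came from peaks within 10 kb of a start site (30.8%; all genes 19.5%). That for Hoxb13 came from the stronger 50% of the list (62.8%; all genes 29.7%). The upper ends came from a setting chosen after seeing the data, any peak within 10 kb of the gene body (56.4% of members for Meis1, all genes 39.1%, and 84.6% for Hoxb13, all genes 52.8%). Joining overlapping peaks, also chosen after seeing the data, gave Hoxb13 a promoter share of 45.1%. No paired analysis was possible because each list is pooled and has no value per library, and for the same reason no replicate could be left out. Depth is unknown, so a missing peak may lie below detection.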
